A study of Mus musculus with 2 samples.

Results

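Ptgds-high mature oligodendrocytes were examined in single-cell RNA sequencing of optic nerves from Nf1OPG mice. A cell was counted as a mature oligodendrocyte when it held at least 4 UMIs (unique molecular identifiers, each standing for 1 captured transcript) of Mag, Mog, Ermn and Aspa together and none of Ptprc, the leukocyte gene CD45. It was called Ptgds-high when it also held at least 5 UMIs of Ptgds, at most 1 UMI of Hopx, Nkx2-9, Dpysl5 and Barx2 together, at most 2 of Serpina3n and C4b together, and at most 2 of Iigp1, Igtp and Tgtp2 together. By this rule 1830 of 25652 kept cells (7.13%), or 21.7% of the 8440 mature oligodendrocytes, were Ptgds-high. The other mature oligodendrocytes were 1842 Ptgds-low cells, which passed every limit except that on Ptgds, 1511 cells over the Hopx limit, 1030 over the Serpina3n and C4b limit, 859 over the interferon limit, with or without the Serpina3n and C4b limit, and 1368 over the Hopx limit and a further limit.

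Nf1OPG mice carry a floxed and a mutant copy of Nf1, and a GFAP-driven Cre removes the floxed copy from neuroglial progenitors and their descendants, so that low-grade glioma forms along the optic nerve. The 2 libraries, C-ON and FMC_new, were both labelled with this genotype and an age of 12 weeks, with nerves of 10 mice pooled per library by the labels, although in the paper each library stands for a separate tumor. What the word control in the title given to C-ON refers to is not known here, so the libraries were treated as replicates of 1 group and not as 2 conditions. Counts of Nf1 do not tell deleted from intact transcripts, and Ptgds-high cells held 61.6 CPM (UMIs of a gene per 1000000 UMIs) of Nf1 in C-ON and 66.4 CPM in FMC_new. The nerves had been dissociated and cleared of debris and myelin, a step that can remove oligodendrocytes, before droplet capture with a 5′ kit.

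After filtering to 500 to 5000 genes, 500 to 20000 UMIs and at most 5% mitochondrial UMIs, 8834 cells of C-ON and 16818 of FMC_new were kept, with medians of 6810.5 and 4676 UMIs. The libraries shared 296 of their 32186 barcodes, of which 1 belonged to a Ptgds-high cell in both. The text of the study names no removal of doublets, and none was made here. FMC_new carried RNA of the pituitary hormones Gh and Prl in cells of every class.

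Oligodendrocytes wrap axons of the optic nerve in myelin and supply them with metabolites. Mature oligodendrocytes are not uniform, and classes rich in Ptgds, Apod and Il33 or rich in Klk6 have been described in the central nervous system. Ptgds encodes the lipocalin-type prostaglandin D synthase, which makes prostaglandin D2 from prostaglandin H2 and, when secreted, carries small lipophilic molecules.

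The Ptgds-high cells carried the genes of mature oligodendrocytes at high levels in both libraries. Opalin, a membrane glycoprotein of oligodendrocytes that the rule did not use, was found in 97.6% of Ptgds-high cells of C-ON and 89.2% of those of FMC_new, with medians of 7 and 5 UMIs. Mbp, which compacts myelin, had medians of 51 and 48 UMIs per cell. Mag and Mog, 2 of the genes that chose the cells, had medians of 23 and 13 UMIs in C-ON and 18 and 9 in FMC_new. Of the markers of the label, Opalin alone was not used to choose the cells, and most of the cells carried it in both libraries. T cells of the same libraries, limited to fewer than 4 UMIs of Mag, Mog, Ermn and Aspa together, were used as a measure of free RNA. They held 15.9 and 5.78 CPM of Opalin against 1220 and 1078 CPM in Ptgds-high cells, but 2540 and 2672 CPM of Mbp against 8499 and 8678 CPM.

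Of the mature oligodendrocytes, 24.3% (23.2 to 25.4) were Ptgds-high in C-ON and 15.8% (14.4 to 17.2) in FMC_new, with exact Clopper-Pearson 95% intervals that cover counting error only. Among all kept cells their shares were 16.1% (15.3 to 16.9) and 2.43% (2.20 to 2.68). The intervals of the libraries did not overlap on either scale. With 1 library on each side there was no test. In cells of 4000 to 10000 UMIs, a window that also changes the mix of the other classes, the share was 32.9% and 21.8% of mature oligodendrocytes.

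The counts of Ptgds that chose these cells spanned more than 2 orders of magnitude. In C-ON the median was 30 UMIs per cell, with quartiles of 13 and 67 and a maximum of 712. In FMC_new the median was 29, with quartiles of 10 and 78 and a maximum of 739. Ptgds was thus a median of 0.556% and 0.577% of all UMIs of a Ptgds-high cell, and at most 13.1% and 8.69%. Just inside the cut, 126 cells of C-ON and 48 of FMC_new held 5 or 6 UMIs, and just outside it 210 and 48 cells held 3 or 4. The cut lay on a slope of a broad distribution and not in a gap. In T cells, which should lack the gene, 0.368% of C-ON and 1.20% of FMC_new reached 5 UMIs, at median depths of 3672 and 3571 UMIs against 6273 and 5850 in Ptgds-high cells.

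The share of cells with 5 or more Ptgds UMIs was much lower among mature oligodendrocytes rich in Hopx than in the other classes. Where no other limit was exceeded, 5 or more were found in 50.1% (48.3 to 52.0) of the cells in C-ON and 48.9% (45.4 to 52.3) in FMC_new. Cells over the Hopx limit alone reached only 7.63% (6.23 to 9.22) and 8.85% (5.49 to 13.3), although they were deeper, with medians of 9654 and 7637.5 UMIs. Cells over the Serpina3n and C4b limit alone had 44.7% and 52.6%, and those over the interferon limit 47.8% and 50.2%. Summed over cells, Ptgds stood at 8653 and 10743 CPM in Ptgds-high cells, 3336 and 4627 CPM in Serpina3n and C4b cells, 2802 and 3206 CPM in interferon cells, 317 and 657 CPM in Hopx cells and 172 and 232 CPM in Ptgds-low cells. T cells held 65.4 and 84.7 CPM.

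**Figure D1:**
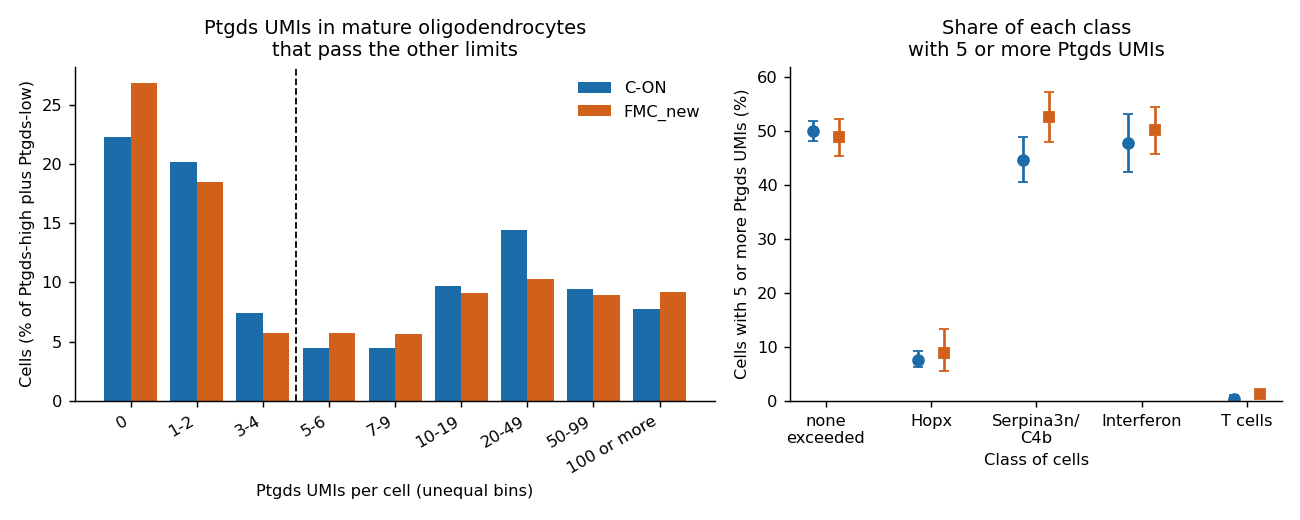
Left, the share of Ptgds-high plus Ptgds-low cells (%) in bins of Ptgds UMIs per cell, for C-ON and FMC_new, with a dashed line at the cut between 4 and 5 UMIs. Right, the share of cells with 5 or more Ptgds UMIs (%) in mature oligodendrocytes that exceed no other limit, in 3 other classes and in T cells, with exact 95% intervals, where only Hopx cells (7.63% and 8.85%) and T cells fall far below 50.1% and 48.9%.

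By the wording of the rule, the nearest comparison was with the Ptgds-low cells, which the limits separate by Ptgds alone. Below the limits, Hopx itself still differed between these classes, with a log2 fold change of -1.21 ± 0.18 (SE). It had 16.0 CPM in C-ON and 16.6 in FMC_new in Ptgds-high cells against 33.8 and 45.0 CPM in Ptgds-low cells. Nkx2-9, Dpysl5 and Barx2 were also lower in Ptgds-high cells of both libraries. The part of this difference in the calls was not tested. Fewer genes were called against the Serpina3n and C4b cells, as given below. Counts were summed per library and class, and 12354 genes other than the 15 of the rule were tested with edgeR's quasi-likelihood test with the library as a block. A gene was called when its Benjamini-Hochberg adjusted p was under 0.05 and its sign was the same in both libraries. In Ptgds-high cells 135 genes were called (1.09%), 47 of them higher (0.38%) and 88 lower (0.712%), and the median log2 fold change of all genes tested was -0.04. The classes were cut from counts of the same cells, so the calls describe which other genes moved with Ptgds in both libraries and are not an independent test of the cut. The p-values rest on 2 libraries. With the library as a block, they measure how differences among the 5 classes vary between the libraries, not the spread between libraries itself. The residual has 4 degrees of freedom over 10 sums.

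Il33, Opalin and Gstp1 were among the genes called higher. Il33, a nuclear alarmin of the interleukin-1 family, stood at 388 CPM in C-ON and 582 in FMC_new in Ptgds-high cells against 123 and 198 CPM in Ptgds-low cells, a log2 fold change of 1.61 ± 0.21 (SE) with an edgeR adjusted p of 0.0092. Opalin stood at 1220 and 1078 against 724 and 444 CPM (1.02 ± 0.12, adjusted p = 0.0072). Gstp1, a glutathione transferase, stood at 2327 and 2383 against 1086 and 1061 CPM (1.14 ± 0.17, adjusted p = 0.015). For each of these genes both libraries of Ptgds-high cells lay above both of Ptgds-low cells.

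Gm42756, C030029H02Rik and Wfdc18 were called higher as well. Gm42756, annotated as antisense, had 51.9 and 73.6 against 15.3 and 20.1 CPM (1.79 ± 0.16, adjusted p = 0.0024), and whether the counting used strand was not stated, so its reads cannot be told from those of an overlapping gene. The lincRNA C030029H02Rik had 185 and 181 against 96.1 and 94.2 CPM (0.95 ± 0.11, adjusted p = 0.0072). Wfdc18 had 115 and 112 against 61.1 and 36.5 CPM (1.21 ± 0.15, adjusted p = 0.0092). Tma16, Fam13c, Hebp1, A230009B12Rik and Phactr3 were also among the 10 highest of the called genes with a mean of at least 50 CPM over the libraries in either class, with log2 fold changes from 0.99 to 1.10. A230009B12Rik is annotated as antisense too, with the same limit as Gm42756.

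Klk6, Piezo2, S100b, Enpp6 and Anxa5 were among the genes called lower. Klk6, a secreted serine protease of a Klk6-rich class of mature oligodendrocytes, stood at 122 and 154 CPM in Ptgds-high cells against 549 and 678 CPM (-2.15 ± 0.34, adjusted p = 0.021). Piezo2, a mechanically gated channel, stood at 5.55 and 8.09 against 30.5 and 27.3 CPM (-2.21 ± 0.26, adjusted p = 0.0084). S100b, a calcium-binding protein, had 213 and 158 against 528 and 380 CPM (-1.29 ± 0.12, adjusted p = 0.0024). Each of these was lower in both libraries of Ptgds-high cells than in either of Ptgds-low cells. Enpp6, a choline phosphodiesterase of newly forming oligodendrocytes, had 161 and 120 against 329 and 252 CPM (-1.03 ± 0.13, adjusted p = 0.0092). Anxa5, a phospholipid-binding annexin, had 81.5 and 102 against 189 and 207 CPM (-1.11 ± 0.18, adjusted p = 0.025).

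**Figure D2:**
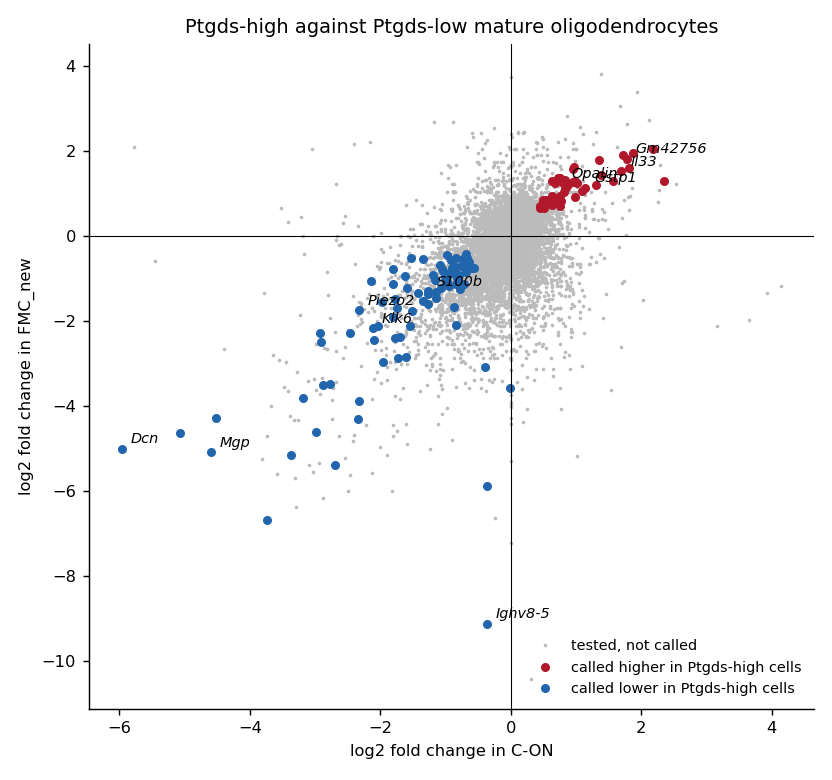
The log2 fold change of Ptgds-high against Ptgds-low cells in C-ON (x axis) and FMC_new (y axis) for the genes tested, where each point is a gene, grey if not called, red for the 47 called higher and blue for the 88 called lower. Il33, Gm42756, Gstp1 and Opalin lie at the upper right, and Klk6, Piezo2 and S100b at the lower left, while Dcn and Mgp lie far below 0 in both libraries and Ighv8-5 in FMC_new.

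The structural genes of myelin did not pass the test between Ptgds-high and Ptgds-low cells, apart from Opalin. Of 18 core myelin genes tested, 1 was called higher and none lower, with a median log2 fold change of 0.18. Mbp had 8499 and 8678 against 8430 and 8728 CPM (0.00 ± 0.10). Mal, a proteolipid of myelin, had 6378 and 6197 against 4831 and 3491 CPM (0.61 ± 0.13, adjusted p = 0.065). None of 14 genes of sheath assembly and axon contact, 22 genes of sterol synthesis or 24 genes of myelin lipid synthesis and transport was called. Their medians were 0.19, -0.21 and 0.05.

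Genes described for late and for Klk6-rich mature oligodendrocytes differed in their medians. Of 26 late mature (MOL5/6) genes, Il33, Qdpr and Csrp1 were called higher and S100b lower, with a median of 0.24. Qdpr, which regenerates tetrahydrobiopterin, had 5236 and 4752 against 3649 and 2681 CPM (0.67 ± 0.12, adjusted p = 0.039). Apod, a lipocalin of the same list, was not called, at 4052 and 3325 against 4865 and 3405 CPM (-0.15 ± 0.17, adjusted p = 0.77). Of 16 early mature and Klk6-class (MOL1/2) genes, Klk6 and Anxa5 were called lower and none higher, with a median of -0.75. The list did not move as 1. Its uncalled genes of highest level, Sgk1, Rtn4 and Hcn2, had log2 fold changes of 0.35, 0.16 and 0.26, positive in both libraries. Of 20 genes of newly formed and myelin-forming cells, Opalin was called higher and Enpp6 lower, with a median of -0.11.

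Among 21 transcription factors of the lineage only Olig2 was called, at 189 and 177 against 126 and 89.3 CPM (0.76 ± 0.14, adjusted p = 0.037). Its partner Olig1 had 1508 and 1354 against 1210 and 830 CPM (0.51 ± 0.11, adjusted p = 0.065). Sox10, which drives the lineage with Olig2, had 389 and 337 against 379 and 226 CPM (0.29 ± 0.13, adjusted p = 0.34), and Myrf, needed for myelin gene expression, had 308 and 318 against 309 and 253 CPM (0.16 ± 0.12, adjusted p = 0.62). The median of the list was 0.12.

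No other gene of the prostaglandin pathway was called higher in Ptgds-high than in Ptgds-low cells. Of 29 genes of the pathway in the table, 14 were tested, none was called higher and 1 lower, with a median of -0.11. The gene called lower was Pla2g4a, the cytosolic phospholipase that releases arachidonic acid, at 33.3 and 33.2 against 68.0 and 60.8 CPM (-0.96 ± 0.15, adjusted p = 0.017). The cyclooxygenases Ptgs1 and Ptgs2, which make the substrate of Ptgds, were near the limit of detection, at 0.762 and 3.40 CPM for Ptgs1 and 0.109 and 0.426 CPM for Ptgs2. The receptors of prostaglandin D2 were hardly detected, with 0.109 CPM in C-ON and no UMI in FMC_new for both Ptgdr and Ptgdr2. The terminal synthase gene Ptges3 had 260 and 277 against 248 and 235 CPM (0.15 ± 0.10, adjusted p = 0.54), and Hpgds, the hematopoietic prostaglandin D synthase, had 0.979 and 2.55 CPM.

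Of 27 genes of signals and growth factors, Il33 and Lgi3 were called higher and none lower, with a median of -0.16. Lgi3, a secreted leucine-rich protein, had 445 and 415 against 274 and 221 CPM (0.79 ± 0.11, adjusted p = 0.013). Of 25 genes of iron, antioxidants and metabolic support, Gstp1 and Qdpr were called higher, with a median of -0.06, and Fth1, the ferritin heavy chain, had 20571 and 21378 against 20801 and 20407 CPM (0.03 ± 0.11). Of 19 genes of ion transport, Piezo2 alone was called, with a median of 0.16. None of 17 glutamate and transmitter receptor genes and none of 24 regulators of RAS and MAPK was called, with medians of -0.04 and 0.02.

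No reactive or interferon gene was called higher in Ptgds-high than in Ptgds-low cells, part of which the rule fixes through Serpina3n, C4b, Iigp1, Igtp and Tgtp2. Of 18 reactive genes Klk6 and S100a6 were called lower, with a median of -0.77. None of 22 interferon response genes and none of 14 genes of MHC class I presentation was called, with medians of -0.83 and -0.82. None of 24 immediate early and dissociation stress genes was called either, with a median of -0.32.

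RNA of other cell types moved with the same contrast. The sum of 6 fibroblast markers was 1.31 and 2.98 CPM in Ptgds-high cells against 55.9 and 127 CPM in Ptgds-low cells, and Lum was at 0 in both libraries of Ptgds-high cells. Dcn, a matrix proteoglycan of fibroblasts, was called lower, at 0.218 and 1.28 against 38.4 and 52.3 CPM. Mgp, a matrix protein, was also called lower, at 3.59 and 14.9 against 98.7 and 507 CPM. The sums of 5 pituitary markers in FMC_new were 9620 against 36156 CPM, those of 3 plasma cell markers 509 and 1515 against 950 and 3578 CPM, those of 6 microglia or macrophage markers 63.5 and 328 against 76.4 and 596 CPM, those of 6 astrocyte markers 67.5 and 117 against 108 and 211 CPM, and those of 5 T cell markers 4.90 and 30.2 against 8.59 and 125 CPM. Ptgds-low cells thus held more RNA of other types than Ptgds-high cells for each of these lists in FMC_new, and for each but the pituitary list in C-ON. Of the called genes with a mean of at least 50 CPM over the libraries in either class, which leaves out Dcn, the 10 lowest were Klk6, Mgp, Ccn3, Cxcl13, Dlk1 and 5 immunoglobulin variable genes. Ccn3, a secreted matricellular protein, had 4.13 and 2.55 against 61.7 and 294 CPM, but Cxcl13, a B cell chemokine, differed mainly in FMC_new, at 0.762 and 9.79 against 0.801 and 118 CPM, as did Dlk1, at 0.109 and 37.0 against 1.26 and 191 CPM. The 5 immunoglobulin genes were all of that kind among the 88 genes called lower, such as Igkv6-15 at 70.7 and 38.3 against 1685 and 739 CPM. Ighv8-5, at 0 and 1.70 against 0.114 and 1144 CPM, owed its sign in C-ON to 1 UMI. After cells with a UMI of another type had been left out, only Klk6, Dlk1 and Ighv8-5 of these 10 were still called, and Dcn, 1 of the markers used, was not.

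Ptgds-low cells of FMC_new were also shallower, with a median of 2716 UMIs against 5850, whereas those of C-ON were close, at 6119.5 against 6273. When every cell with a UMI of any of 8 markers of other cell types, Dcn, Col1a1, C1qa and Cd3e among them, was left out, 43 of the 47 higher calls (91.5%) and 64 of the 88 lower calls (72.7%) were still made. Within 4000 to 10000 UMIs, 41 (87.2%) and 63 (71.6%) were still made. In all 11 alternatives that kept the library block, 24 of the 47 higher genes (51.1%), among them Il33, Opalin, Gm42756, Wfdc18, Gstp1, Lgi3 and C030029H02Rik, and 29 of the 88 lower genes (33.0%), among them Klk6, Piezo2, S100b, Anxa5 and Enpp6, were called. Olig2, Qdpr, Csrp1, A230009B12Rik, Phactr3, Pla2g4a and S100a6 were not among these. Without the library block, edgeR called no gene, with 908 at an unadjusted p under 0.05 against 1713 with it.

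Levels of Opalin, Il33 and Klk6 also varied with the amount of Ptgds on both sides of the cut. In C-ON, Opalin went from 564 CPM in cells without a Ptgds UMI to 980 CPM at 3 to 4 UMIs, 1076 CPM at 5 to 6 and 1389 CPM at 100 or more. In FMC_new it was 313 CPM at 0, 604 CPM at 3 to 4, 811 CPM at 5 to 6, 722 CPM at 7 to 9 and 1414 CPM at 100 or more. Opalin thus varied within both classes as well as across the cut. The median depth in FMC_new also went from 2379 UMIs at 0 to 6346 UMIs at 100 or more, and the part of depth was not tested. Il33 went from 72.0 CPM at 0 to its highest values of 472 CPM in C-ON and, from 166 CPM, 717 CPM in FMC_new, both at 50 to 99 Ptgds UMIs. Klk6 went from 702 CPM at 0 to 68.1 CPM at 100 or more in C-ON, and in FMC_new from 918 CPM at 0 to 70.8 CPM at 50 to 99 and 132 CPM at 100 or more.

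**Figure D3:**
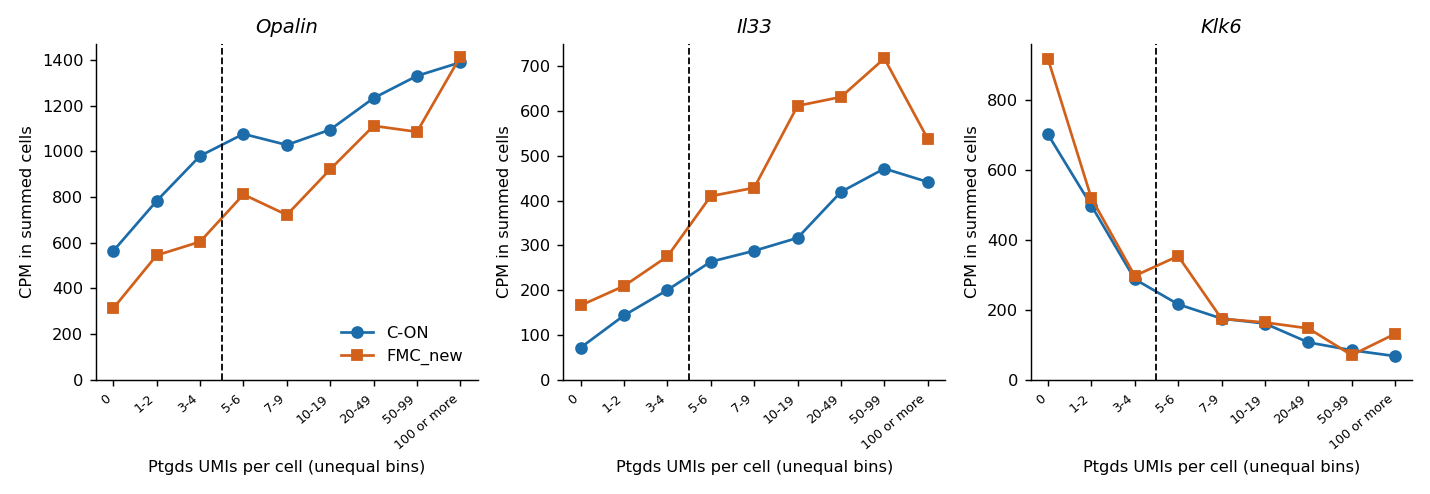
CPM of Opalin, Il33 and Klk6 in cells summed within bins of Ptgds UMIs per cell, for C-ON and FMC_new, with a dashed line at the cut between 4 and 5 UMIs. Opalin goes from 564 and 313 to 1389 and 1414 CPM over the bins, Il33 is highest at 50 to 99 UMIs, and Klk6 goes from 702 and 918 CPM to 68.1 and 132 CPM.

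At an equal depth of 2000 UMIs per cell the shares of cells with a UMI differed in the same directions. Opalin was found in 86.8% (85.0 to 88.6) and 82.5% (78.2 to 86.2) of Ptgds-high cells, in C-ON and FMC_new in turn, against 64.4% and 42.8% of Ptgds-low cells. For Il33 the shares were 48.0% (45.3 to 50.6) and 54.5% (49.3 to 59.7) against 17.0% and 23.2%. For Klk6 they were 17.1% (15.2 to 19.2) and 18.4% (14.5 to 22.7) against 47.9% and 46.7%. T cells gave 4.13% and 1.14% for Opalin, 1.57% and 1.18% for Il33 and 11.0% and 7.52% for Klk6, so the Klk6 share of Ptgds-high cells lay nearest to the level of free RNA. Thinning left out 30 of 1421 Ptgds-high cells in C-ON and 44 of 409 in FMC_new, and 187 of 1414 and 152 of 428 Ptgds-low cells, so the shares of the latter in FMC_new rest on its deeper cells. Unthinned, 97.6% and 89.2% of Ptgds-high cells had a UMI of Opalin.

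As examples, the stretches upstream of the start sites of 4 genes are shown. The genes are Ptgds, Opalin and Il33, which moved with it, and Klk6, which moved against it. Other called genes, such as Gm42756 and Gstp1, changed by more than Opalin. The stretches are taken from RefSeq promoter windows of GRCm38.p6 and trimmed to bases outside annotated exons, 5′ to 3′ on the strand of the gene. Capitals mark the E-box CANNTG, which basic helix-loop-helix factors such as Olig2 can bind, and the letters ACAAAG or ACAATG on either strand, as bound by Sox factors such as Sox10.
Ptgds promoter, chr2:25469843-25469999, minus strand: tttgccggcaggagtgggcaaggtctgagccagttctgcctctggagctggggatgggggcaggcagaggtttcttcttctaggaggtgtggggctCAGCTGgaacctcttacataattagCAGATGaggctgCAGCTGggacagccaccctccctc
Opalin promoter, chr19:41077114-41077363, minus strand: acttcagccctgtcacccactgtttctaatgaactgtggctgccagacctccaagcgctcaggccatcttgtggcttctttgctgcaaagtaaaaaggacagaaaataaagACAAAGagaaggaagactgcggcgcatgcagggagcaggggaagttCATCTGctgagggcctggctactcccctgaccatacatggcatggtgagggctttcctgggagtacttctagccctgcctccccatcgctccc
Il33 promoter, chr19:29924863-29925112, plus strand: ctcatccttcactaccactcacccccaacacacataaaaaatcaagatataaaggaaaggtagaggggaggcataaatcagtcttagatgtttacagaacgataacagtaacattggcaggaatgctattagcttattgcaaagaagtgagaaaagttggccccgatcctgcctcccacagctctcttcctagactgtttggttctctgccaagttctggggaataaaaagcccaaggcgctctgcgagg
Klk6 promoter, chr7:43824294-43824498, plus strand: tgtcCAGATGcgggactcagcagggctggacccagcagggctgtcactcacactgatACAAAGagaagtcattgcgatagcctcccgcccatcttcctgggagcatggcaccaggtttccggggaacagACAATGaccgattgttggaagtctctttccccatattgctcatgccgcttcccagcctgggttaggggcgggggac
In these stretches Ptgds held 3 E-boxes and no Sox-type match, Opalin held 1 of each, Il33 held none, and Klk6 held 1 E-box and 2 Sox-type matches. The stretch of Ptgds lies upstream of the RefSeq start but inside the gene as GENCODE annotates it, since 1 longer transcript starts farther upstream, at 25470046. It covers 157 bases and that of Klk6 205 bases, because the rest overlaps exons, and for Il33 and Klk6 the first of 2 listed start sites was used. Over 250 bases upstream, CANNTG was found in 66.2% of all 32851 promoters and the Sox-type letters in 25.2%. Of the genes called higher against Ptgds-low cells, 39 of 47 matched a promoter, and 61.5% of these held CANNTG and 43.6% the Sox-type letters. For the 68 matched genes called lower the shares were 60.3% and 17.6%, and for 9573 tested genes they were 56.4% and 16.9%. A match of such short letters is a description and not a binding site.

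Against Hopx cells 991 genes were called in Ptgds-high cells (8.02%), 457 higher (3.7%) and 534 lower (4.32%), with a median log2 fold change of 0.01 over all genes tested. Hopx cells were deeper, with medians of 9654 and 7637.5 UMIs against 6273 and 5850.

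Il33 and Opalin were called again and by more. Il33 had 388 and 582 CPM in Ptgds-high cells against 26.4 and 53.3 CPM in Hopx cells (3.72 ± 0.23, adjusted p = 3.1e-05). Opalin had 1220 and 1078 against 213 and 159 CPM (2.67 ± 0.13, adjusted p = 5.1e-06). The metabotropic glutamate receptor genes Grm7 and Grm3 were called higher, Grm7 at 364 and 329 against 46.7 and 77.1 CPM (2.59 ± 0.26, adjusted p = 0.00032). Each of these had both libraries of Ptgds-high cells above both of Hopx cells. The 5 highest also held Ighv1-72, C030029H02Rik, Kirrel3 and Wfdc18, and for Ighv1-72, an immunoglobulin gene, 98.6% of the UMIs of Ptgds-high cells of C-ON lay in 1 cell.

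Tubb2b, Klk6 and S100b were among the genes called lower than in Hopx cells. Tubb2b, a tubulin of immature neural cells, had 4.68 and 11.5 against 195 and 210 CPM (-4.94 ± 0.62). Klk6 had 122 and 154 against 2556 and 2482 CPM (-4.18 ± 0.37, adjusted p = 0.0002), and S100b 213 and 158 against 1586 and 1024 CPM (-2.77 ± 0.13, adjusted p = 4.8e-06). Bace2, Dlc1 and Uchl1, with log2 fold changes of -4.58, -4.26 and -3.91, completed the 5 lowest. Apod was also called lower, at 4052 and 3325 against 7746 and 6690 CPM (-0.94 ± 0.17, adjusted p = 0.0075).

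By list, 10 of 26 late mature genes were called higher and 6 lower against Hopx cells, with a median of 0.32. Of 18 core myelin genes 5 were higher and 2 lower, with a median of 0.19, among them Tspan2 (1.45 ± 0.13) and Cd9 (1.80 ± 0.22), both tetraspanins, higher and Gjb1 (-0.74 ± 0.11), the connexin 32 gene, lower. Of 22 genes of sterol synthesis none was higher and 7 were lower, with a median of -0.61. Of 21 transcription factors of the lineage 6 were higher and 1 lower, Olig2 (1.24 ± 0.14) and Olig1 (0.80 ± 0.11) among the higher.

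Against the Serpina3n and C4b cells 36 genes were called (0.291%), 5 higher (0.0405%) and 31 lower (0.251%), with a median of 0.00. The higher genes included Wfdc18, at 115 and 112 against 68.5 and 48.1 CPM (0.99 ± 0.15, adjusted p = 0.033), C030029H02Rik (0.71 ± 0.11) and Ndrg2 (0.94 ± 0.13), and the immunoglobulin gene Igkv8-19, with 88.7% of its UMIs in C-ON in 1 cell and 2 UMIs in FMC_new. Il33 did not pass, at 388 and 582 against 419 and 737 CPM (-0.20 ± 0.20, adjusted p = 0.82). Lower were the immunoglobulin gene Ighv1-19 (-3.88), Klk6, at 122 and 154 against 806 and 2242 CPM (-3.37 ± 0.36, adjusted p = 0.0062), Piezo2 (-3.44 ± 0.25), the complement protease gene Masp1 (-2.59 ± 0.20), the mitochondrial folate enzyme gene Aldh1l2 (-2.09 ± 0.24) and Csf1, the growth factor of microglia, at 102 and 111 against 160 and 200 CPM (-0.73 ± 0.11, adjusted p = 0.033). The rule used Serpina3n and C4b, and of 18 other reactive genes 1, Klk6, was called lower and none higher.

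Against the interferon cells 740 genes were called (5.99%), 248 higher (2.01%) and 492 lower (3.98%), with a median of 0.01. The interferon cells were chosen by 3 interferon-induced genes, so that 21 of 22 other interferon response genes and 14 of 14 genes of MHC class I presentation were lower in Ptgds-high cells is close to the rule itself. Outside these lists, Klk6 had 122 and 154 against 5118 and 4096 CPM (-5.07 ± 0.39, adjusted p = 0.00033), and Klk8, a related protease gene and, with Gm4951, Gbp2, Gm4841 and Gbp4, 1 of the 5 lowest, 2.28 and 3.40 against 807 and 165 CPM (-7.51 ± 1.02). Il33 was lower here, at 388 and 582 against 954 and 935 CPM (-0.99 ± 0.20, adjusted p = 0.021), the reverse of its direction against Ptgds-low and Hopx cells. The 5 highest held the immunoglobulin gene Ighv1-72, with 98.6% of its UMIs in C-ON in 1 cell, A230009B12Rik and Serpinb1a. Also higher in Ptgds-high cells were Wfdc18 (1.98 ± 0.16), Lama2 (1.37 ± 0.33), Grm7 (1.27 ± 0.24) and, by less, Opalin at 1220 and 1078 against 999 and 719 CPM (0.47 ± 0.12, adjusted p = 0.047).

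**Figure D4:**
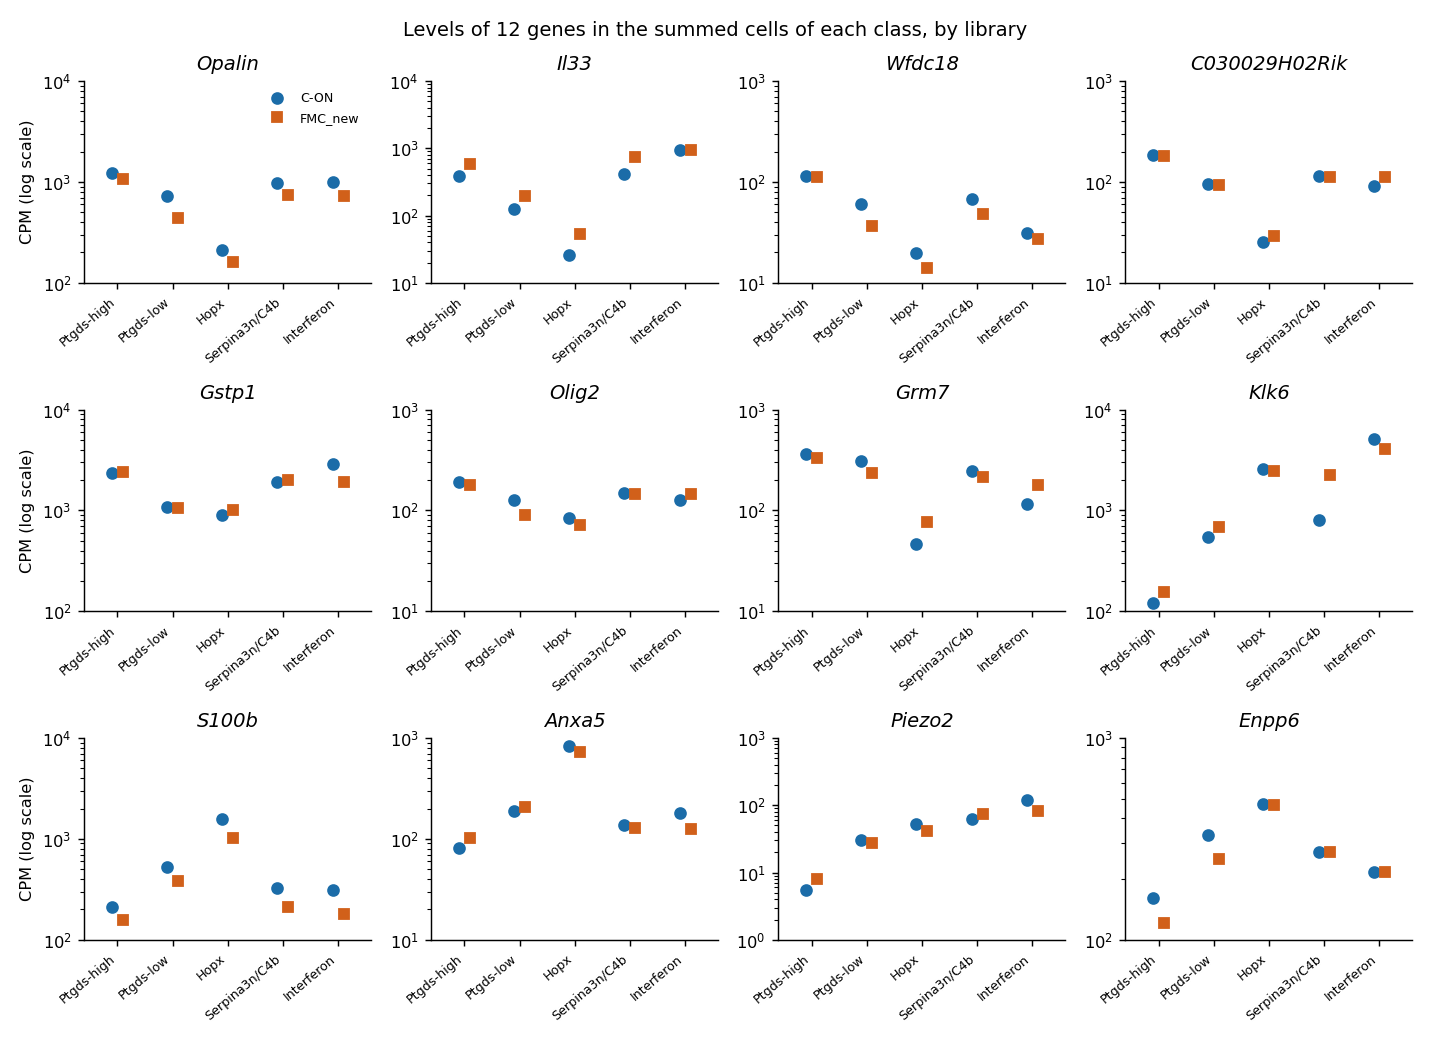
CPM on a log scale of 12 genes in the summed cells of 5 classes of mature oligodendrocytes, with 1 point for C-ON (circles) and 1 for FMC_new (squares). Opalin is highest in Ptgds-high cells in both libraries, but was not called against Serpina3n and C4b cells. Il33 is highest in interferon cells (954 and 935 CPM), and Klk6 is lowest in Ptgds-high cells (122 and 154 CPM).

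The 4 comparisons share the sums of the Ptgds-high cells and are not independent of each other. Klk6, Piezo2 and Enpp6 were among the genes called lower, and Wfdc18 and C030029H02Rik among those called higher, in each of them. Against Serpina3n and C4b cells, however, C030029H02Rik lost its call in 4 of 12 alternatives and Wfdc18 in 3 of 12. For C030029H02Rik the log2 fold changes were 0.95 against Ptgds-low, 2.81 against Hopx, 0.71 against Serpina3n and C4b and 0.88 against interferon cells. Enpp6 had -1.03, -1.71, -0.92 and -0.59.

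Cells that were not members gave a further view of the genes that moved with Ptgds. Within the Serpina3n and C4b class and the interferon class, cells with 5 or more Ptgds UMIs were set beside those with fewer, a split chosen after the calls had been seen. Of the 47 genes called higher, 40 (85.1%) had the same sign in all 4 of these pairs of sums, and of the 88 called lower 56 (63.6%). Among all tested genes that were higher or lower in both libraries, 19.7% and 21.8% did. Those genes were not matched to the called ones for level or size of change, and the split used the same cut on Ptgds as the rule. The shares are therefore a description and no test of the calls. In Serpina3n and C4b cells, Opalin had 1176 CPM with 5 or more Ptgds UMIs against 795 CPM with fewer in C-ON, and 982 against 443 CPM in FMC_new. Klk6 had 432 against 1118 CPM and 1738 against 2865 CPM there. C030029H02Rik had 167 against 71.8 CPM and 153 against 62.9 CPM, and Wfdc18 89.1 against 51.3 CPM and 65.4 against 26.8 CPM. These 2 genes thus moved with Ptgds in this class too and were not particular to Ptgds-high cells. The median depths of the cells with more and with less Ptgds were 8247.5 and 7978.5 UMIs for this class of C-ON, and 7376 and 6875 UMIs for that of FMC_new. Interferon cells differed more in C-ON, at 8293.5 against 6550 UMIs, than in FMC_new, at 7465 against 7677 UMIs.

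Il33 did not move the same way everywhere. In Serpina3n and C4b cells it had 593 against 275 CPM and 881 against 559 CPM, and in interferon cells of FMC_new 1045 against 816 CPM, but in interferon cells of C-ON it was lower, at 881 against 1032 CPM. In the few Hopx cells with 5 or more Ptgds UMIs, 98 in C-ON and 20 in FMC_new, Il33 had 199 against 12.5 CPM and 244 against 28.2 CPM, and Opalin 713 against 173 CPM and 434 against 123 CPM. These are values of single sums, with no test.

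Among Ptgds-high cells themselves, thinned to 2000 UMIs, the share of Ptgds in a cell's UMIs was described against 2915 genes by Spearman's rho, with 1391 cells of C-ON and 365 of FMC_new that share their library and its free RNA. The median rho was 0.00 and 72 genes lay above 0.1 and 49 below -0.1. Gstp1 was highest, at 0.35 in C-ON and 0.43 in FMC_new, followed by Ckb, the brain creatine kinase gene, at 0.31 and 0.34, and Qdpr at 0.27 and 0.30. Opalin had 0.17 and 0.28. The lowest was Anln, which encodes anillin, at -0.20 and -0.21. In counts as sparse as these the weaker values are no finding.

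The Ptgds-high cells of the libraries differed in the levels of few of the 6588 genes with at least 20 CPM in 1 library. Past 2-fold were 200 genes (3.04%), 176 higher in FMC_new (2.67%) and 24 higher in C-ON (0.364%), with no test. Of the 176, 48 were immunoglobulin genes and 86 were also past 2-fold in T cells of the same libraries. Of the 24 higher in C-ON, 9 were immunoglobulin genes and 15 were also past 2-fold in T cells. Such genes were thus found in both directions, and their share among all 6588 genes was not counted. Gh had no UMI among the 9191779 UMIs of Ptgds-high cells of C-ON and 7968 CPM in FMC_new, and Prl none and 940 CPM, while T cells of FMC_new held 5749 and 3238 CPM of them. Each of the 409 Ptgds-high cells of FMC_new held a UMI of a pituitary marker, against 39 of 1421 (2.75%) in C-ON. The part of this RNA in the results was not tested.

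Some genes were past 2-fold between the libraries in Ptgds-high cells with another ratio in T cells. B2m, the light chain of MHC class I, had 98.0 CPM in C-ON and 416 in FMC_new, a ratio of 4.25 (3.87 to 4.65, exact interval from counts), against 1.16 in T cells. H2-D1, an MHC class I heavy chain gene, had 130 and 504 CPM, a ratio of 3.89 (3.58 to 4.21) against 0.88, and H2-K1 49.5 and 234 CPM. T cells themselves held 2314 and 2693 CPM of B2m and 2555 and 2249 CPM of H2-D1. For these 2 genes their ratio is therefore no measure of free RNA. B2m was also higher in FMC_new in Ptgds-low (121 and 765 CPM), Hopx (105 and 380 CPM) and Serpina3n and C4b cells (279 and 1254 CPM). Interferon cells had 3402 and 3122 CPM. Slpi, a secreted protease inhibitor, had 21.8 and 509 CPM against a ratio of 0.49 in T cells, with 24.0% and 19.4% of its UMIs in 1 cell of each library. Higher in C-ON was Peak1, at 279 and 94.9 CPM, a ratio of 0.34 that T cells shared at 0.38. Ptgds at 8653 and 10743 CPM, Opalin at 1220 and 1078 CPM and Il33 at 388 and 582 CPM stayed within 2-fold between the libraries.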

How the data were processed

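Single-cell RNA sequencing of optic nerves was deposited by the authors as raw UMI counts per gene and barcode, as whole numbers without normalization, for barcodes called as cells. Per the file headers these counts were made with Cell Ranger 7.2.0 against mm10. Strand handling was not given in the sources used here. The 2 libraries form 1 group by their genotype label. The counts of C-ON summed to 85101211 UMIs in 10845 barcodes and those of FMC_new to 129113325 UMIs in 21341 barcodes, from 32285 genes.

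The cells were selected by the rule on 15 genes given above. That rule, the gene lists and the tests were chosen with earlier results of these data known. Counts were summed per library and class for 5 classes (10 sums), filtered with filterByExpr, scaled by TMM and tested with edgeR 4.0.16 (quasi-likelihood test, R 4.3.3) with library as a block and Benjamini-Hochberg adjustment over 12354 genes. The genes of the rule were left out of the calls. A gene without a UMI in both classes of a library has no sign there and was not called. CPM is UMIs of a gene per 1000000 UMIs of the summed cells. The test was checked on simulated counts. Alternatives used DESeq2 1.42.0 and limma 3.58.1. T cells (Ptprc at least 1 UMI, CD3 genes at least 2 UMIs, and fewer than 4 UMIs of Mag, Mog, Ermn and Aspa together) served as a measure of free RNA. The last limit leaves out T cells with the most RNA of those genes, so it may hold down their levels of oligodendrocyte RNA. Intervals cover counting error only. Named genes were those of the rule and the markers, in each list up to 5 called genes of largest change and up to 3 uncalled genes of highest level, the 10 highest and 10 lowest called genes against Ptgds-low cells and 5 each way against the other classes at 50 CPM or more, the ends of the library ratios and of the correlations, and markers of other cell types. Csf1, Gjb1, H2-K1, Nf1, Ptgs1, Ptgs2, Ptgdr, Ptgdr2, Hpgds, Slpi, Sox10 and Tspan2 were named after their values were seen. Some genes that the rule names are not reported here. The cells were counted with numpy 2.4.6, pandas 2.3.3 and scipy 1.17.1 under Python 3.11.15 and drawn with matplotlib 3.10.9, and gene positions came from an annotation of GRCm38.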

Additional observations from a re-analysis of the deposited data

How the results depend on the processing

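For 61 pairs of a named gene and a comparison no direction changed under the alternatives run, and of their values 614 kept the call and 111 lost it. The pairs were picked from called genes and the alternatives reuse the same 2 libraries, so a kept direction is no independent support. Against Ptgds-low cells the count of 135 became 75 with Ptgds at 3 or more UMIs, 578 without a filter on low counts, 874 with only the compared classes in the fit, 261 with limma-voom, 204 with DESeq2 and 0 without the library block. Against Hopx cells 991 became 2309 with only the compared classes, 1587 with limma-voom and 433 without the block. Against Serpina3n and C4b cells 36 became 22 with Ptgds at 3 or more, 57 within 4000 to 10000 UMIs, 22 with mitochondrial UMIs at most 10%, 73 without cells of another type, 216 without the filter, 1026 with only the compared classes, 68 with DESeq2 and 2 without the block. Against interferon cells 740 became 186 without the block. With 1 library left out no test was possible, and genes past 2-fold numbered 680 to 1875 against Ptgds-low, 1084 to 1652 against Hopx, 586 to 1042 against Serpina3n and C4b and 1247 to 1593 against interferon cells. The share of mature oligodendrocytes was 29.7% within 4000 to 10000 UMIs. At 50 CPM, 92 genes were past 2-fold between libraries. Thinned to 1000 and 4000 UMIs, Opalin was found in 65.9% and 95.8%, Il33 in 32.0% and 66.0% and Klk6 in 11.1% and 29.5% of Ptgds-high cells, and at 2000 UMIs with 1 library left out in 82.5% to 86.8%, 48.0% to 54.5% and 17.1% to 18.4%. Apart from the settings that change the cells or genes entered, the causes were not tested. Depth limits genes such as Ptgdr and Ptgs2.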
